A study of Mus musculus with 3 samples.

Results

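The genes described here are the D-type cyclins Ccnd1, Ccnd2 and Ccnd3, their kinase partners Cdk4 and Cdk6, and the CDK inhibitors Cdkn1b (p27), Cdkn1c (p57) and Cdkn2c (p18). They were chosen by name, 8 of the 22535 genes in the UMI tables, and all 8 had counts in each of the 3 libraries. Single cells of kidney cortex were captured with BD Rhapsody from WT1CreERT2; Rosa26-tdTfl/+ mice, which carry 1 floxed tdTomato (tdT) reporter allele and in which tamoxifen labels cells that express Wt1 and their descendants. Podocytes also express Wt1, so that the reporter marks more than the parietal epithelial cells (PECs) of Bowman's capsule. The Sham library mixed sorted tdT+ with tdT- cells after sham surgery. IRI24h-TDN was mixed in the same manner 24 h after ischemia-reperfusion injury (IRI), which was severe and of both kidneys, whereas the IRI24h-TD library came from the tdT+ sort only, also 24 h after IRI. All mice carried the same alleles, their age and sex are not given in the sources used here, and the sort and the mixing set how many cells of each class a library holds.

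D-type cyclins are made when growth signals reach a cell, and with CDK4 or CDK6 they phosphorylate the retinoblastoma protein, which frees E2F factors to switch on the genes of S phase. CDKN2C belongs to the INK4 inhibitors, which bind CDK4 and CDK6 and keep them from the cyclin. CDKN1B and CDKN1C belong to the CIP/KIP inhibitors, which bind cyclin-CDK complexes and act most strongly on those with CDK2. Mature podocytes rest outside the cell cycle and are known for strong CDKN1C, whereas tubular and parietal epithelial cells can divide again after damage.

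Barcodes with at least 200 genes and at most 50% mitochondrial UMIs were kept, which left 26760 cells of 30008 barcodes, 8047 Sham, 9024 IRI24h-TDN and 9689 IRI24h-TD cells, with medians of 7746, 9151 and 9529 UMIs. Between 82 and 96 barcodes were shared by each pair of libraries. Cells were clustered without the 8 genes, and clusters were named from marker lists, with the ending "-like". All markers of a list were higher in their own class than in other cells for 11 of the 13 named classes, and the exceptions were PEC-like cells with 10 of 11 markers and lymphocyte-like cells with 5 of 8. The largest class was that of podocyte-like cells, with 4530, 5340 and 8807 cells in Sham, IRI24h-TDN and IRI24h-TD, against 894, 278 and 334 PEC-like and 1082, 198 and 173 proximal tubule (PTEC)-like cells. PTEC-like and ascending limb-like cells of IRI24h-TD were shallow, with medians of 1154 and 930 UMIs and podocyte markers at 18.8% and 18.9% of their level in podocyte-like cells, and endothelial-like cells of Sham had a median of 2220.5 UMIs, so values for these groups are less certain.

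A level is the UMIs of a gene summed over the cells of a class in a library and scaled to the summed UMIs of those cells (CPM), with its exact Poisson 95% interval. A ratio of levels carries an exact 95% interval conditional on the summed UMIs, and a share of cells an exact Clopper-Pearson 95% interval. These intervals cover counting error only. Because each condition was 1 library, differences between conditions are given without replicates and without a test. A ratio of 1.5 or more in either direction, with at least 50 UMIs over both groups, is called past the fold. Levels by library are given for classes with at least 50 cells in it, and lymphocyte-like cells, 47 in all, are given over the libraries together.

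Among the D cyclins, Ccnd1 was the one whose level in podocyte-like cells differed most between Sham and the IRI libraries. Ccnd1 (chromosome 7, 144929931 to 144939925, minus strand; positions here are those of GENCODE M21 on GRCm38) had 26.1 CPM (24.5 to 27.8) in podocyte-like cells of Sham, 196 CPM (193 to 200.3) in IRI24h-TDN and 202 CPM (199 to 205) in IRI24h-TD. In PEC-like cells it had 105, 129 and 97.2 CPM in the same order, and in PTEC-like cells 77.6, 190 and 190 CPM. The Sham podocyte-like cells thus lay below all PEC-like and PTEC-like groups, and those of both IRI libraries lay above all PEC-like groups, with intervals that overlapped those of the IRI PTEC-like groups.

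The other classes held Ccnd1 at levels that went in several directions. Monocytic-like cells had 240 CPM in Sham and 267 CPM in IRI24h-TDN, mesangial-like cells 156 and 156 CPM, and endothelial-like cells 130 and 173 CPM. Along the distal nephron Ccnd1 was lower after IRI, with 151 CPM in Sham and 50.7 CPM in IRI24h-TDN in ascending limb-like cells, 194 and 77.6 CPM in distal convoluted tubule-like cells, and 283 and 136 CPM in connecting tubule-like cells. Intercalated-like cells had 24.0 and 19.3 CPM. In lymphocyte-like cells, a class that was nearly without Ccnd1, 1 UMI in 47 cells gave 4.56 CPM (0.115 to 25.4), an upper limit below the Sham podocyte-like level but within that level's interval.

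Counted by cells, Ccnd1 had a UMI in 14.5% of podocyte-like cells of Sham (13.5 to 15.6), 70.9% of IRI24h-TDN (69.7 to 72.1) and 72.4% of IRI24h-TD (71.4 to 73.3). The median depths were 8241, 9335.5 and 9658 UMIs, against 3032 UMIs in lymphocyte-like cells, of which 2.13% had a UMI. With cells thinned at random to 2000 UMIs each, and 94, 0 and 283 shallower podocyte-like cells left out, the shares were 4.49%, 28.9% and 30.3%, and 0 of 42 lymphocyte-like cells, which allows up to 8.41%. Thinning to 4000 UMIs gave 8.23%, 48.3% and 49.7%. The order of the libraries was the same at all depths. In thinned cells of IRI24h-TDN 22.3% of podocyte-like cells had exactly 1 Ccnd1 UMI and 6.55% had more, against 4.01% and 0.473% in Sham, so that most cells with a UMI had exactly 1.

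Ccnd2 (chromosome 6, 127125162 to 127152193, minus strand) had another order of classes than Ccnd1, although monocytic-like cells were high in both. Lymphocyte-like cells had 524 CPM (433 to 629) over the libraries together. Among the classes with levels by library the medians were highest in endothelial-like cells, with 395 CPM in Sham and 304 CPM in IRI24h-TDN, and in mesangial-like cells, with 331 and 347 CPM. Monocytic-like cells came next, with 201 CPM (177 to 226) in Sham and 424 CPM (407 to 440.5) in IRI24h-TDN. The ranges over libraries of these 3 classes overlapped, and they lay apart from PEC-like cells, which had 137 CPM (129 to 146) in Sham, 60.8 CPM (52.9 to 69.6) in IRI24h-TDN and 79.9 CPM (71.1 to 89.5) in IRI24h-TD.

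Among epithelial classes the PEC-like class had the highest Ccnd2, but its clusters were unlike. Its largest cluster, 9, with 621 of 1506 cells, had 16.5 CPM (13.8 to 19.6) over the libraries together, whereas cluster 16 and subclusters 0, 1 and 2 of cluster 11 had between 111 and 329 CPM. Podocyte-like cells had 13.5, 11.3 and 10.6 CPM, below every PEC-like group. PTEC-like cells had 4.04, 0.95 and 6.38 CPM, and no other tubular group exceeded the 21.7 CPM of ascending limb-like cells in Sham. Of the Sham PEC-like cells 34.5% held a Ccnd2 UMI at a median depth of 6674.5 UMIs, and in 2.03% of PTEC-like cells at 7128.5 UMIs.

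Ccnd3 (chromosome 17, 47505051 to 47599691, plus strand) was sparse in all classes. Its level ran from 1.27 CPM in PTEC-like cells of IRI24h-TDN to 24.7 CPM in distal convoluted tubule-like cells of Sham, leaving aside ascending limb-like cells of IRI24h-TD, which had no UMI, and the ranges of all neighbouring classes overlapped. In podocyte-like cells it had 9.64, 7.0 and 9.81 CPM, and in PEC-like cells 9.71, 6.63 and 10.4 CPM. Because of these differences the mixture of D cyclins was particular to the class and library. Ccnd1 made up 53.0% of the D-cyclin UMIs of podocyte-like cells in Sham (50.7 to 55.2), 91.5% in IRI24h-TDN (90.9 to 92.0) and 90.8% in IRI24h-TD. In PEC-like cells its share was 41.7%, 65.6% and 51.9%, in PTEC-like cells 89.4%, 98.8% and 94.8%, and in mesangial-like cells 31.1% and 30.4%. These shares compare UMIs counted at the 3′ end and are not levels of protein.

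**Figure D1:**
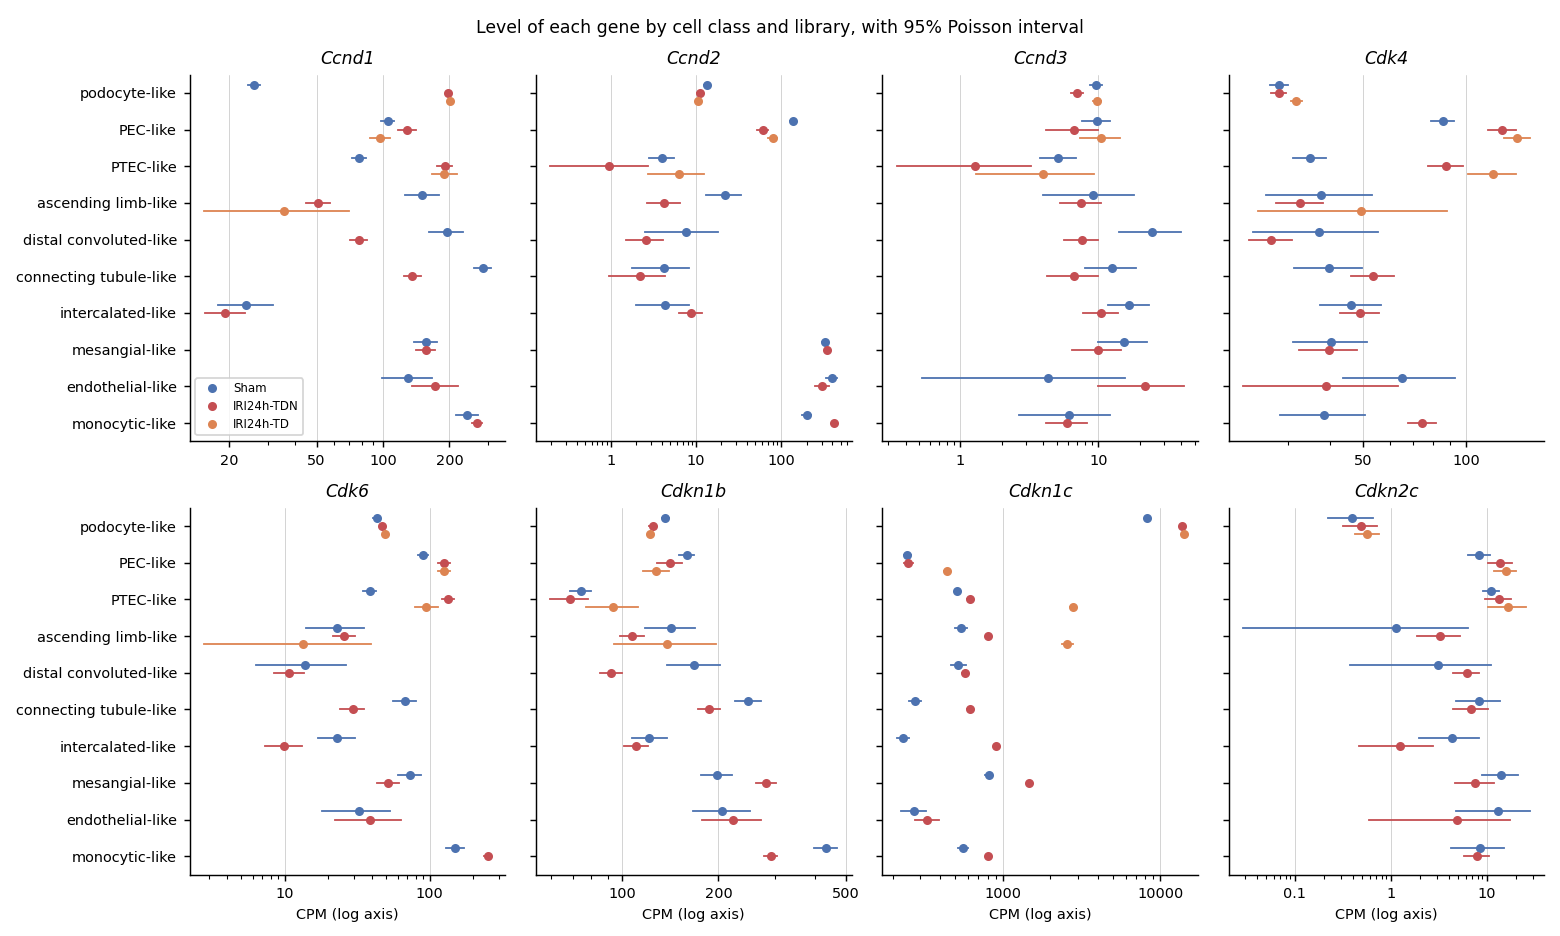
Level of each of the 8 genes (CPM of summed UMIs, log axis) by cell class, with 1 point per library and bars for the exact Poisson 95% interval. Podocyte-like cells have the highest Cdkn1c in every library (8172, 13734 and 14001 CPM), and their Ccnd1 lies at 26.1 CPM in Sham and at 196 and 202 CPM in the IRI libraries.

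Of the kinases, Cdk4 (chromosome 10, 127063534 to 127067920, plus strand) was highest in PEC-like cells and lowest in podocyte-like cells by the median over libraries. PEC-like cells had 85.4 CPM (78.9 to 92.3) in Sham, 127 CPM (116 to 140) in IRI24h-TDN and 141 CPM (130 to 154) in IRI24h-TD. PTEC-like cells had 34.9, 87.1 and 120 CPM, and monocytic-like cells 38.4 and 74.3 CPM. Podocyte-like cells stayed at 28.4, 28.2 and 31.8 CPM. The ranges of neighbouring classes in this order overlapped.

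The stretch of 250 bases that ends at the start of Cdk4 in RefSeq (GRCm38.p6, chr10:127063285-127063534, plus strand) is shown because it holds the hexamer CACGTG, the E-box that MYC and related factors are known to bind, 4 times. This hexamer, which reads alike on both strands, was looked for after the values had been seen. Capitals mark it.
Cdk4: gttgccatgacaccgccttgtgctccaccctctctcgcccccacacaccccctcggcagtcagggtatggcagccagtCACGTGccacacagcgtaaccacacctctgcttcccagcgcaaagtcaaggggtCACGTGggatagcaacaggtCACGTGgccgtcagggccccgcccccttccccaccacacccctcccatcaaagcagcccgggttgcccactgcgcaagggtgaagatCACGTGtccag
Of 27025 mouse genes with such a stretch, 1854 (6.86%) held CACGTG at least once and 5 (0.0185%) at least 4 times. Promoters in the reference used here covered 5 of the 8 genes, and Cdk6 held it once and Ccnd3, Cdkn1b and Cdkn2c did not. A match is a description of letters and not a site of binding. Myc itself, the transcription factor gene, had the same first 3 classes as Cdk4, in the order PEC-like, PTEC-like and monocytic-like, and the same last class, podocyte-like cells, where it had 0.631, 0.568 and 0.509 CPM in Sham, IRI24h-TDN and IRI24h-TD. Over the 24 class and library groups, Pearson's r of log levels with Myc was 0.66 for Cdk4, 0.67 for Cdkn2c and -0.49 for Cdkn1c. The groups share libraries and hold podocyte markers, so that these values are a description.

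Cdk6 (chromosome 5, 3341485 to 3531008, plus strand) was highest in monocytic-like cells, with 151 CPM (130 to 173) in Sham and 251 CPM (238 to 264) in IRI24h-TDN. PEC-like cells had 89.7, 125 and 125 CPM, and PTEC-like cells 38.6, 135 and 94.9 CPM. In podocyte-like cells it had 43.0, 47.1 and 48.9 CPM, with no pair of libraries differing by 1.5-fold. The lowest levels were those of intercalated-like cells, with 23.1 and 9.85 CPM, and distal convoluted tubule-like cells, with 13.9 and 10.7 CPM.

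The inhibitors had the most unlike patterns of the 8 genes. Cdkn1b (chromosome 6, 134920401 to 134925513, plus strand), which arrests cells that leave the cycle, was found in all classes, from 68.4 CPM in PTEC-like cells of IRI24h-TDN to 433 CPM in monocytic-like cells of Sham. Podocyte-like cells had 137, 125 and 123 CPM and PEC-like cells 159, 141 and 128 CPM. Mesangial-like cells had 198 and 282 CPM.

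Cdkn1c (chromosome 7, 143458339 to 143461050, minus strand) was the gene that set podocyte-like cells apart. It had 8172 CPM (8143 to 8200.4) in podocyte-like cells of Sham, 13734 CPM (13702 to 13766) in IRI24h-TDN and 14001 CPM (13976 to 14026) in IRI24h-TD. The highest level elsewhere was 2773 CPM, in the shallow PTEC-like cells of IRI24h-TD. In PEC-like cells Cdkn1c had 248, 251 and 443 CPM, and the podocyte-like level of Sham was 32.9-fold that of PEC-like cells, and between 9.08-fold and 89.4-fold over the other settings. In thinned cells the median podocyte-like cell of Sham had 15 Cdkn1c UMIs of 2000, and those of IRI24h-TDN and IRI24h-TD had 25, and 0.406% of Sham cells had none. Nearly all cells of the class thus held the transcript.

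Cdkn2c (chromosome 4, 109660876 to 109667189, minus strand) was highest in PEC-like and lowest in podocyte-like cells by the median over libraries. This was the reverse of Cdkn1c for these classes, among those with levels by library. The Cdkn1c places and correlation given here are those of measured levels, and podocyte markers were found in all other classes. Without cells rich in podocyte markers, PEC-like cells did not have the lowest Cdkn1c level among groups of Sham and IRI24h-TDN, as described below. The order between them was not reversed throughout, as mesangial-like cells were 2nd for Cdkn1c and 3rd for Cdkn2c. Podocyte-like cells had 0.394, 0.490 and 0.567 CPM, from 15, 25 and 49 UMIs. PEC-like cells had 8.38, 13.8 and 15.8 CPM and PTEC-like cells 11.1, 13.3 and 16.8 CPM. Across the 24 groups its level had r of -0.63 with that of Cdkn1c, the lowest of the 28 pairs among the 8 genes, and the highest was 0.67 for Ccnd2 with Cdkn1b.

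Cdkn2c was the only one of the 5 genes with a promoter in the reference to hold an E2F-type core (TTCCCGC, or instead TTGGCGC, or else TTCGCGC, or finally TTGCCGC, on either strand, chosen after a longer form had given no match in these 5) in the 250 bases before a start. Of 27025 genes 9.01% hold it, as do 8 of 21 other genes of the G1/S step and 3 of 10 mitotic genes. The stretch of Cdkn2c (RefSeq, GRCm38.p6, chr4:109666757-109667006, minus strand, written 5′ to 3′) is shown with the match in capitals. The stretch before another start of Cdkn2c held no core. Cdkn2c was the one of the 3 inhibitors described here that was higher in cycling cells of all 3 classes compared. Of these inhibitors, Cdkn1c had no promoter in the reference, so its letters could not be compared. Cdk4 was also higher in cycling cells of these classes, and its stretch held no core. A match is a description of letters and not a site of binding, and its bearing on the levels was not tested. Cdkn2d, another INK4 inhibitor gene, was 4.99-fold, 6.05-fold and 3.08-fold higher in cycling PEC-like, PTEC-like and monocytic-like cells.
Cdkn2c: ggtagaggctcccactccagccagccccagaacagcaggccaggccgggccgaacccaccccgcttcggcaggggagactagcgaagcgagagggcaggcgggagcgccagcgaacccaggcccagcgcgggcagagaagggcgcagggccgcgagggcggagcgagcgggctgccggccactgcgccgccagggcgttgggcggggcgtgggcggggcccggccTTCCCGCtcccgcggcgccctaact

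Podocyte markers were found in all other classes, and the Cdkn1c level of those classes is given beside them. For each class the summed level of 9 podocyte markers (among them Nphs1, Podxl, Synpo, Ptpro, Thsd7a, Magi2 and Clic3) was taken as a share of their level in podocyte-like cells of the same library, and that share of the podocyte-like Cdkn1c level is called the marker-matched level. Measured Cdkn1c was between 0.216 and 1.18 of the marker-matched level in the 21 other groups. Intercalated-like cells of IRI24h-TDN had 908 CPM and a marker-matched level of 877 CPM. PTEC-like cells of IRI24h-TD had 2773 and 2633 CPM, and mesangial-like cells of IRI24h-TDN 1464 and 1427 CPM. The part of stray podocyte RNA in these levels was not tested.

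When cells above 10% of the podocyte-like marker level were left out, a choice made after seeing the data, Cdkn1c was between 49.1 and 196 CPM in all other classes of Sham and IRI24h-TDN. Such cells made up 12.7% of PEC-like, 11.8% of PTEC-like and 35.1% of endothelial-like cells. PEC-like cells then had 91.4, 88.1 and 209 CPM in Sham, IRI24h-TDN and IRI24h-TD. For Ccnd1 in PEC-like cells of IRI24h-TDN the marker-matched level was 7.31 CPM of the 129 CPM measured. These cells had the lowest summed podocyte markers of that library's classes with at least 50 cells, 832 CPM, so the value does not stand for other classes. Intercalated-like cells of IRI24h-TDN had 1427 CPM of the markers beside 19.3 CPM of Ccnd1. Ascending limb-like cells of IRI24h-TD had 4424 CPM of the markers beside 35.7 CPM of Ccnd1. The part of podocyte RNA in these Ccnd1 levels was not tested.

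**Figure D2:**
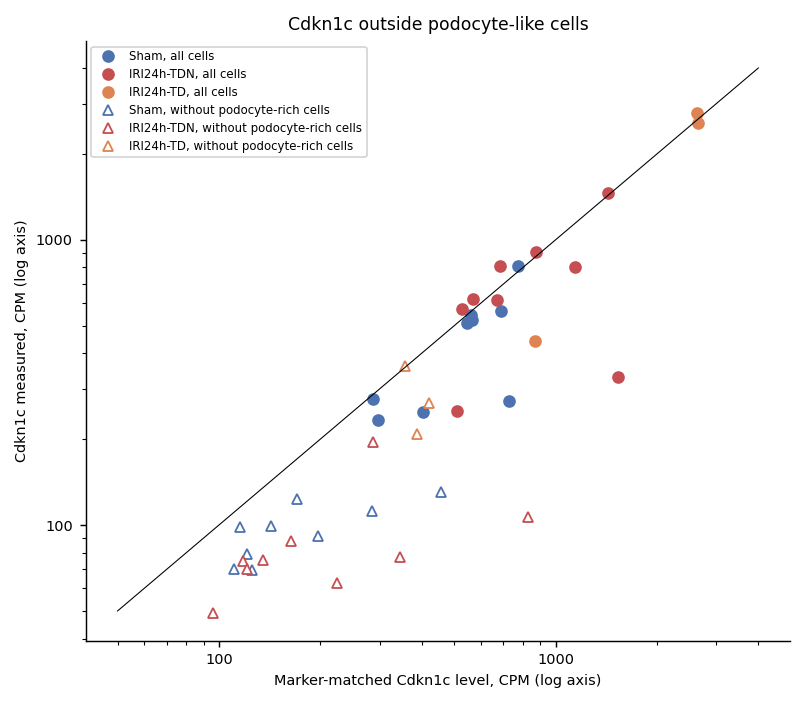
Measured Cdkn1c level (CPM, log axis) against the marker-matched level of the same cells, with 1 point for each library and class other than podocyte-like and a line where both are equal. Filled circles, all cells, lie between 0.216 and 1.18 of the line's value, and open triangles, without cells rich in podocyte markers, between 0.129 and 1.01.

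IRI24h-TDN against Sham compares injured with uninjured cortex, both as mixtures of tdT+ and tdT- cells. In podocyte-like cells Ccnd1 was 7.53-fold higher (7.05 to 8.04) and Cdkn1c 1.68-fold higher (1.67 to 1.69) after IRI, so that the cyclin and the inhibitor were higher together. These were 2 of the 7 genes with enough UMIs, beside 23.8% of 12015 genes past the fold in that class (9.48% higher and 14.3% lower). Ccnd2 (0.837, 0.742 to 0.944), Ccnd3 (0.725, 0.625 to 0.842), Cdk4 (0.995, 0.919 to 1.08), Cdk6 (1.10, 1.03 to 1.17) and Cdkn1b (0.912, 0.879 to 0.947) were not past it. The median log2 ratio of the 7 genes was -0.01, and that of all genes -0.05.

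The podocyte-like difference was found in each subgroup. In 7 of 7 podocyte-like clusters Ccnd1 was higher in IRI24h-TDN, by 3.61-fold to 16.2-fold. Cluster 2 went from 13.0 to 210 CPM, and cluster 8, the one with the most PEC markers, from 72.3 to 261 CPM. Cdkn1c was higher in the same 7 clusters by 1.43-fold to 2.28-fold. In 13 other settings of the processing the Ccnd1 ratio stayed between 7.39 and 8.07 and the Cdkn1c ratio between 1.65 and 1.79. Ccnd2 did not behave alike in these clusters, with ratios from 0.284 in cluster 8 to 2.92 in cluster 2.

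**Figure D3:**
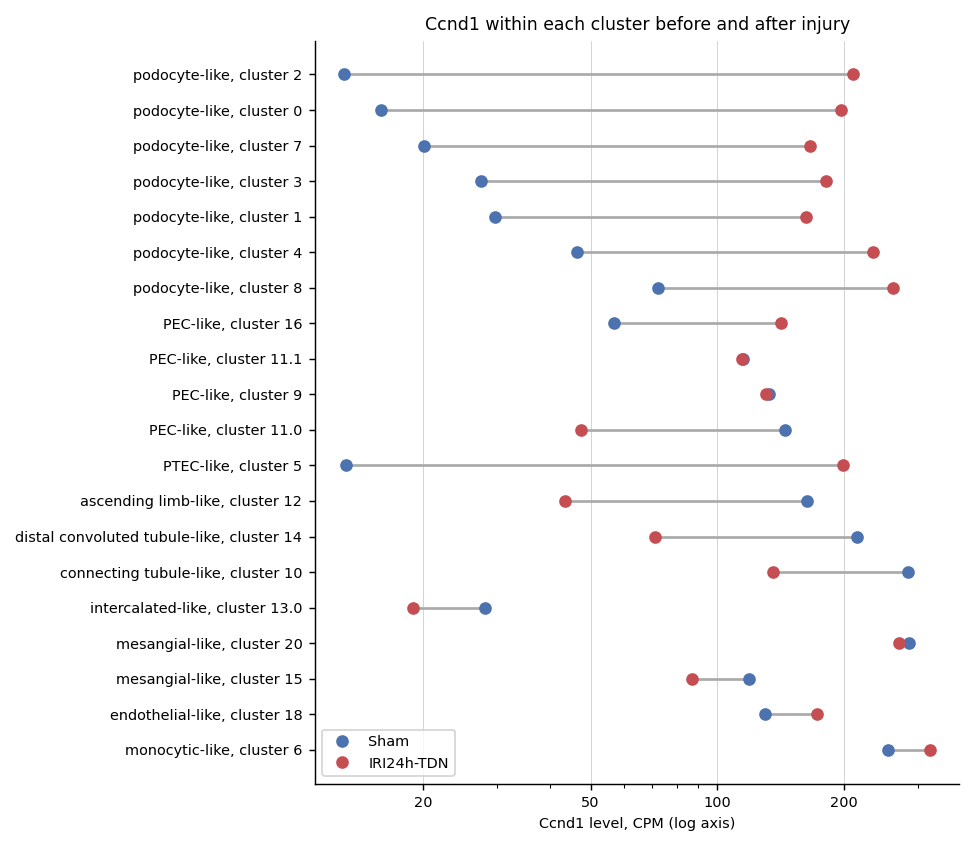
Ccnd1 level (CPM, log axis) in Sham and IRI24h-TDN for clusters of all classes found in both libraries with at least 50 Ccnd1 UMIs over both. A grey line joins the levels of a cluster and is not an interval. All 7 podocyte-like clusters lie higher in IRI24h-TDN, with ratios from 3.61 to 16.2, whereas the 4 PEC-like clusters with enough UMIs have ratios from 0.327 to 2.50.

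In PEC-like cells the D cyclins went apart. Ccnd2 was lower after IRI, at 0.443 of its Sham level (0.380 to 0.514), and Ccnd1 had a ratio of 1.23 (1.09 to 1.38). The ratio of Ccnd2 was under 1 in the 4 PEC-like clusters with enough UMIs, from 0.514 to 0.844, all closer to 1 than the class ratio. Cluster 9, low in Ccnd2, held 330 of 894 PEC-like cells in Sham and 135 of 278 in IRI24h-TDN, and in subclusters 0 and 1 of cluster 11 the intervals included 1. Cdk4 and Cdk6 had ratios of 1.49 (1.32 to 1.69) and 1.39 (1.23 to 1.57), short of the fold, and Cdk4 was above 1 in all 4 clusters, from 1.19 to 1.60. With Cdkn2c, which had a ratio of 1.65 (1.11 to 2.44), 2 of the 8 genes were past the fold, beside 35.8% of all genes (15.7% higher and 20.1% lower). The Cdkn2c ratio was 0.990 when cycling cells were left out and 0.780 when each cell took its class from its own markers, and the Ccnd2 ratio was 0.166 in the latter setting.

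Ccnd1 was not uniform within the PEC-like class. In cluster 16 it went from 56.7 to 142 CPM, a ratio of 2.50 (1.95 to 3.22), and in cluster 9 from 132 to 131 CPM, and in subcluster 0 of cluster 11 from 144 to 47.3 CPM, a ratio of 0.327 (0.145 to 0.649). Lcn2, which encodes the injury protein NGAL, had 1.87 CPM in Sham and 1153 CPM in IRI24h-TDN in cluster 16. It had 1.15 and 207 CPM in cluster 9 and 1.54 and 63.1 CPM in subcluster 0 of cluster 11, from 1 and 12 UMIs, so that Lcn2 was higher in all 3 clusters and Ccnd1 was not. In IRI24h-TD cluster 16 had 85.8 CPM of Ccnd1 and 3.79 CPM of Lcn2, and subcluster 0 of cluster 11 had no Lcn2 UMI. Lcn2 was higher in IRI24h-TDN in every class with levels in both libraries. Ascending limb-like cells of IRI24h-TDN had 5782 CPM, and endothelial-like and mesangial-like cells had 470 and 94.8 CPM, without a UMI in Sham. The part of stray RNA in these Lcn2 levels was not tested. S100a6, a calcium-binding protein gene of injured tubules, had 329 CPM in PEC-like cells of Sham and 5417 CPM in those of IRI24h-TDN, and the keratin gene Krt18 had 96.7 and 495 CPM. S100a6 was not particular to PEC-like cells, as it was higher in IRI24h-TDN in every class with levels in both libraries. Podocyte-like cells had 20.8 and 1556 CPM of it.

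In PTEC-like cells Ccnd1 and both kinases were higher after IRI, in the class with the largest share of all genes past the fold. Ccnd1 was 2.45-fold (2.20 to 2.74), Cdk4 2.50-fold (2.12 to 2.94) and Cdk6 3.49-fold (3.02 to 4.03) higher in IRI24h-TDN, and Ccnd3 was at 0.247 of its Sham level (0.0645 to 0.674), with 47 UMIs in Sham and 4 in IRI24h-TDN. These were 4 of 7 genes, beside 49.3% of all genes (27.7% higher and 21.6% lower). Cdkn1b (0.920) and Cdkn2c (1.19) were not past the fold. The median log2 ratio was 0.28 for the 7 genes and 0.11 for all genes. With each cell's class taken from its own markers the Cdk6 ratio was 2.16, and with at least 500 genes per cell that of Ccnd3 was 0.429.

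Different clusters made up this class in the 2 libraries. Cluster 19, with 266 of its 267 cells from Sham and led by Spp2, Cyp2d26 and Ttr, had 319 CPM of Ccnd1. In cluster 5, which Havcr1 led, with 700 cells in Sham and 157 in IRI24h-TDN, Ccnd1 went from 13.1 CPM (10.5 to 16.2) to 199 CPM (183 to 216), a ratio of 15.2 (12 to 19.3). Cdk4 went there from 25.9 to 93.3 CPM and Cdk6 from 41.0 to 145 CPM. Havcr1, the gene of kidney injury molecule KIM-1, had 6.78 CPM in Sham and 2947 CPM in IRI24h-TDN in cluster 5, and Krt20, a keratin of injured tubules, had none in Sham and 423 CPM. Cdkn1c had 114 and 119 CPM.

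The distal nephron differed from the proximal tubule in Ccnd1. In ascending limb-like cells Ccnd1 was at 0.336 of its Sham level (0.271 to 0.418), the only one of 5 genes past the fold, beside 37.2% of all genes (17.5% higher and 19.7% lower), and the ratio was 0.652 with at most 20% mitochondrial UMIs. In distal convoluted tubule-like cells Ccnd1 (0.399, 0.328 to 0.489), Ccnd3 (0.307, 0.173 to 0.576) and Cdkn1b (0.549, 0.448 to 0.679) were lower, 3 of 6 genes beside 41.0% of all genes (20.3% higher and 20.7% lower), with 52 cells in Sham. In connecting tubule-like cells Ccnd1 (0.480, 0.424 to 0.543) and Cdk6 (0.435, 0.333 to 0.567) were lower and Cdkn1c was 2.23-fold higher, 3 of 5 genes beside 31.4% (16.7% higher and 14.7% lower).

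In intercalated-like cells Cdk6 (0.427, 0.279 to 0.652) and Ccnd3 (0.623, 0.396 to 0.989) were lower and Cdkn1c (3.90) and Ccnd2 (2.04, 0.976 to 4.75) higher, 4 of 7 genes beside 29.5% (16.1% higher and 13.4% lower). The Ccnd2 ratio had an interval that includes 1, was 0.551 with at most 20% mitochondrial UMIs and 1.17 at Leiden resolution 2, and that of Ccnd3 was 0.678 with each cell's own markers. The Cdkn1c ratios of connecting tubule-like and intercalated-like cells were 0.953 and 0.903 without cells rich in podocyte markers, and that of intercalated-like cells was 1.42 with at most 20% mitochondrial UMIs. In intercalated-like cluster 13.0 Cdkn1c had 75.3 CPM in Sham and 74.7 CPM in IRI24h-TDN.

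Immune and stromal classes had patterns of their own. In monocytic-like cells Ccnd2 was 2.11-fold (1.86 to 2.41), Cdk4 1.94-fold (1.44 to 2.65) and Cdk6 1.67-fold (1.44 to 1.95) higher, 3 of 7 genes beside 41.6% (29.9% higher and 11.7% lower), and the median log2 ratio of all genes there was 0.25. Ccnd1 (1.11, 0.984 to 1.26) and Cdkn1b (0.674, 0.612 to 0.742) were not past the fold. In mesangial-like cells Cdkn1c was 1.8-fold higher, with the podocyte markers given above, and Ccnd3 was at 0.649 (0.360 to 1.17), 2 of 7 genes beside 20.7% (11.8% higher and 8.92% lower). Ccnd1, Ccnd2 and Cdk4 had ratios of 0.997, 1.05 and 0.984 in mesangial-like cells. In endothelial-like cells none of 4 genes was past the fold, beside 29.5% (14.1% higher and 15.4% lower).

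Over the 10 classes, 13 of 63 pairs of gene and class (20.6%) were higher and 11 (17.5%) lower in IRI24h-TDN, near the shares of all genes over the same classes, which were 18% higher and 16.3% lower. Ccnd1 was higher in 2 and lower in 3 of 10 classes, and Cdk6 higher in 2 and lower in 2 of 9. Ccnd3 was lower in 4 and higher in none of 6 classes, and Cdk4 higher in 2 and lower in none of 9. Cdkn1b was the steadiest, lower in 1 of 10 classes.

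**Figure D4:**
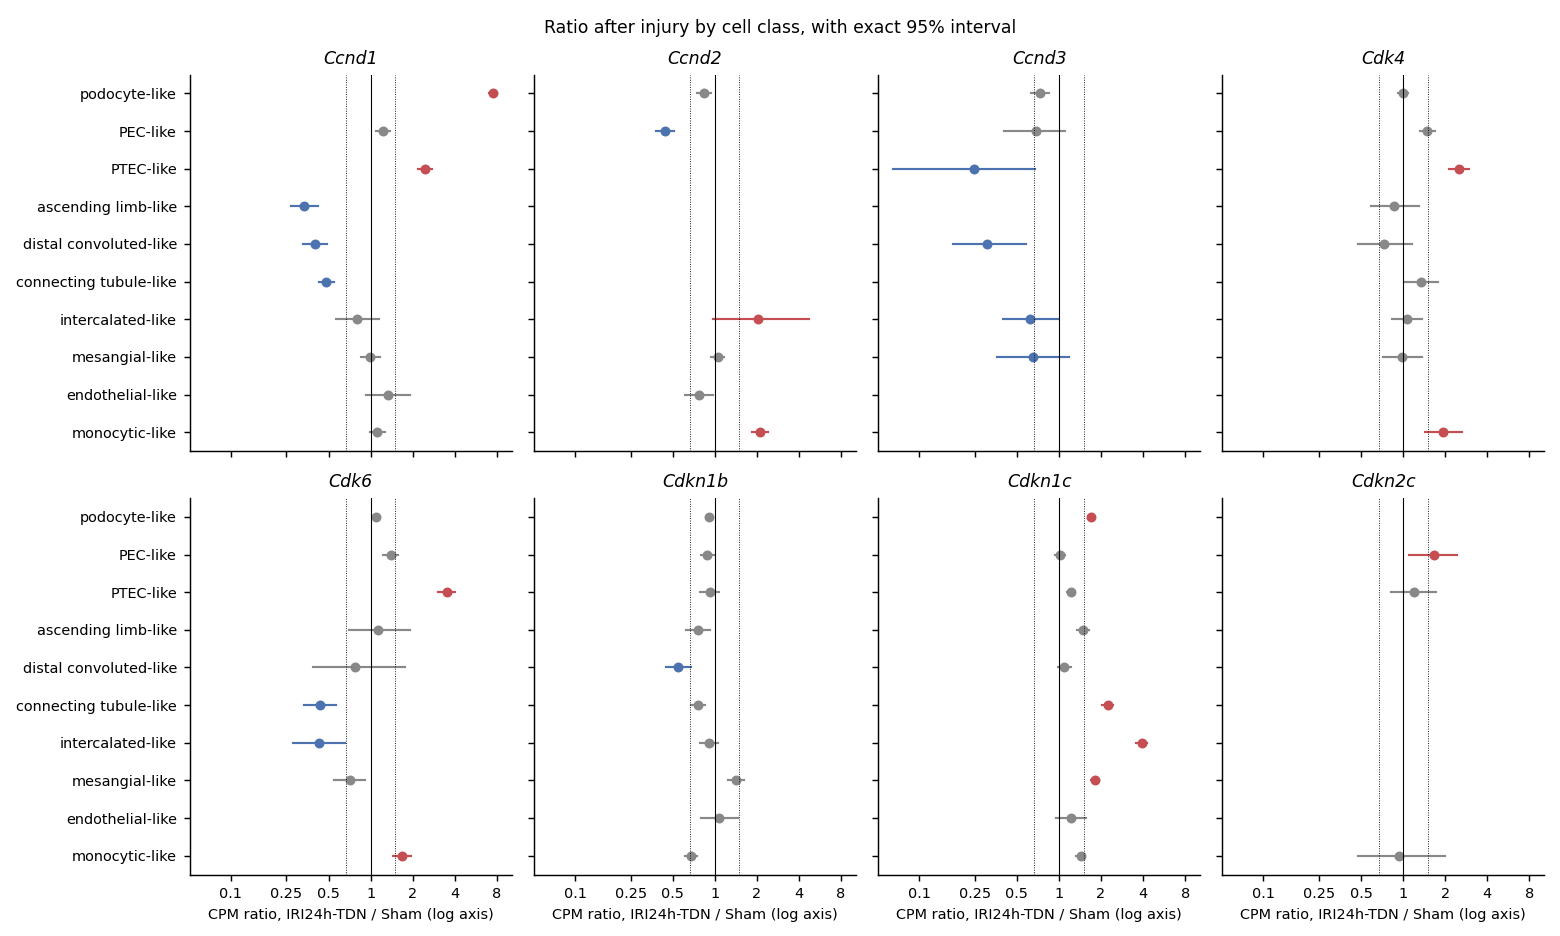
Ratio of levels in IRI24h-TDN to Sham (log axis) for each gene and class with at least 50 UMIs, with exact 95% intervals and lines at 1.5-fold in both directions. Ccnd1 lies at 7.53 in podocyte-like cells and between 0.336 and 0.480 in the ascending limb-like, distal convoluted tubule-like and connecting tubule-like classes.

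The IRI24h-TD library gave a second set of cells from the same time after IRI, sorted for tdT alone. In podocyte-like cells none of the 8 genes was past the fold against IRI24h-TDN, beside 3.40% of all genes (1.07% higher and 2.33% lower). Ccnd1 had a ratio of 1.03 (1.0 to 1.05), Cdkn1c 1.02 (1.02 to 1.02) and Ccnd3, the farthest from 1, 1.40 (1.24 to 1.59). In PEC-like cells Ccnd1 had a ratio of 0.755 (0.656 to 0.869), Ccnd2 1.31 (1.10 to 1.58), Cdk4 1.11 (0.976 to 1.26) and Cdk6 1.0 (0.880 to 1.15). There, 2 of 8 genes were past the fold, beside 8.94% (4.69% higher and 4.25% lower).

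These were Cdkn1c, with 1.77 (1.63 to 1.92), and Ccnd3, with 1.57 (0.916 to 2.76) from 23 and 39 UMIs. Cdkn1c ran from 1.06 to 4.28 over the other settings, and the Ccnd3 ratio was 1.40 without correction between libraries and 1.31 with each cell's own markers. In PTEC-like cells, 1 of 6 genes was past the fold, beside 23.3% (15.7% higher and 7.67% lower). It was Cdkn1c, with 4.48, where podocyte markers were 18.8% of the podocyte-like level, against 4.15% in IRI24h-TDN, and the ratio ran from 0.720 to 4.85. Ccnd1 had a ratio of 0.997 (0.855 to 1.16) in PTEC-like cells. In ascending limb-like cells, 71 in number and with 8 Ccnd1 UMIs, Cdkn1c (3.18, from 2.71 to 7.31 over the other settings), Cdk4 (1.51, 0.738 to 2.77) and Cdk6 (0.522, 0.106 to 1.56) were past the fold, 3 of 5 genes beside 38.9% (21.1% higher and 17.9% lower), and the call was lost in 6 of 9 other settings for Cdk4, to as low as 1.04, and in 2 of 9 for Cdk6, whose ratio ran from 0 to 0.795.

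The genes around the cyclin D step were read from a list of 28 other G1/S genes. In podocyte-like cells 6 of 24 with enough UMIs were higher after IRI and 2 lower, beside 9.48% and 14.3% of all genes. The farthest from 1 was Cdkn1a (p21, a CIP/KIP inhibitor that p53 turns on), with 5.60 CPM in Sham and 46.2 CPM in IRI24h-TDN, 8.25-fold higher (7.17 to 9.54). E2f1, an S-phase transcription factor gene, went from 119 to 48.0 CPM, a ratio of 0.403 (0.384 to 0.424). Ccne1, the cyclin partner of CDK2, was 2.47-fold higher at 0.499 and 1.23 CPM, and Cks1b, a small CDK subunit, 2.37-fold higher at 4.60 and 10.9 CPM. Myc had a ratio of 0.901 (0.507 to 1.62). Podocyte-like cells of IRI24h-TDN thus had higher Ccnd1 together with higher Cdkn1c and Cdkn1a.

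In PEC-like cells 7 of 22 of these genes were higher and none lower, beside 15.7% and 20.1% of all genes. Ccne1 was 9.86-fold (4.72 to 23.1), the S-phase cyclin Ccna2 5.48-fold, Cks1b 4.33-fold and E2f1 2.54-fold higher, and Myc had 103 and 108 CPM. In PTEC-like cells 10 of 20 were higher and none lower, beside 27.7% and 21.6%. Myc was 6.87-fold (5.81 to 8.15), Cks1b 5.41-fold, Cdkn1a 5.34-fold and Cdk2 2.29-fold higher. Over all classes Cdkn1a was higher in 9 of 10, and in monocytic-like cells its ratio was 1.12 (1.04 to 1.21). Cks1b was higher in 9 of 9 classes and Myc higher in 5 and lower in 1 of 8, with 10.2-fold in connecting tubule-like and 0.552 in monocytic-like cells, beside 18% of all gene and class pairs higher and 16.3% lower.

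Cells in division were compared with other cells of their class, class by class and over the 3 libraries together. A cell counted as cycling when at least 3 of 11 mitotic genes (Mki67, Top2a, Ube2c, Birc5, Ccnb1, Ccnb2, Cdk1, Cenpf, Cdc20, Nusap1 and Tpx2) had a UMI. This held for 67 of 1506 PEC-like cells (10 from Sham, 29 from IRI24h-TDN and 28 from IRI24h-TD), 39 of 1453 PTEC-like, 58 of 1186 monocytic-like and 4 of 18677 podocyte-like cells. The PTEC-like ones were 14 from Sham, 7 from IRI24h-TDN and 18 from IRI24h-TD, and the monocytic-like ones 10, 47 and 1. Just below the limit, with 2 mitotic genes, were 26, 20, 44 and 53 cells, and exactly at it 3, 7, 16 and 4. Cycling cells were deeper, with a median of 19739 against 7691 UMIs in PEC-like, 14347 against 7103.5 in PTEC-like and 10604 against 5124 in monocytic-like cells, and the cell's depth enters the call.

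Cdkn2c and Cdk4 were higher in cycling cells of all 3 classes. Cdkn2c had 6.06 CPM in other and 65.0 CPM in cycling PEC-like cells, 10.7-fold higher (7.84 to 14.7), and was 4.68-fold higher (3.08 to 6.93) in PTEC-like and 6.37-fold (3.56 to 11.2) in monocytic-like cells. Cdk4 was 2.20-fold (1.93 to 2.50), 3.86-fold (3.15 to 4.69) and 2.47-fold (1.96 to 3.09) higher in the same order. Their ratios stayed past the fold in the other 4 settings tried. When cells had been thinned to 2000 UMIs before the call, the Cdkn2c ratio in PTEC-like cells was 7.43.

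The D cyclins parted by class again. In PEC-like cells Ccnd1 was 2.49-fold higher (2.19 to 2.81), with 95.4 CPM in other and 237 CPM in cycling cells, and Ccnd2 was at 0.293 (0.213 to 0.394), with 112 and 32.8 CPM. PEC-like clusters were unlike in both genes, and how the cycling cells were spread over them is not given here. Cluster make-up and cycling are therefore not told apart in these ratios. In PTEC-like cells Ccnd1 was 2.59-fold higher (2.21 to 3.03), and 1.70-fold after thinning, whereas in monocytic-like cells Ccnd1 had 1.10 (0.937 to 1.28) and Ccnd2 0.755 (0.648 to 0.874). Of the cycling PTEC-like cells 14 of 39 were from Sham, against 1082 of 1453 in the class. Ccnd1, Cdk4 and Cdk6 of PTEC-like cells were also higher in IRI24h-TDN than in Sham. Library and cycling are therefore not told apart in the PTEC-like ratios. Of the 8 genes 5 were past the fold in PEC-like cells (3 higher and 2 lower), beside 44.9% of all genes (16.6% higher and 28.3% lower). In PTEC-like cells 6 of 7 were (5 higher and 1 lower), beside 47.3% (25.6% higher and 21.6% lower), and in monocytic-like cells 3 of 7 (2 higher and 1 lower), beside 34.1% (16.6% higher and 17.5% lower).

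The remaining calls varied more between classes and settings. Cdk6 was 2.42-fold higher (1.94 to 2.98) in cycling PTEC-like cells and had 1.16 and 0.997 in PEC-like and monocytic-like cells. Cdkn1b was 1.69-fold higher in PTEC-like cells (1.33 to 2.12), 1.35-fold at 2 mitotic genes and 2.63-fold after thinning, and Ccnd3 at 0.354 there rested on 1 UMI in cycling cells. Cdkn1c was at 0.428 in PEC-like and 0.132 in monocytic-like cells. It was 1.04 and 0.526 with 2 mitotic genes, and 0.859 in monocytic-like cells with the top 6% of doublet scores left out, and its level in these classes lay under the marker-matched level. The Ccnd2 ratio in PEC-like cells was 0.448 with 2 mitotic genes.

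Within a library the comparison could be made for PEC-like cells in IRI24h-TDN and IRI24h-TD, since Sham had 10 cycling cells. In IRI24h-TDN cycling PEC-like cells had Ccnd1 3.66-fold higher (3.02 to 4.44), Cdk4 1.91-fold higher and Ccnd2 at 0.496 (0.296 to 0.788), with 4 of 6 genes past the fold beside 39.0% (14.5% higher and 24.5% lower). In IRI24h-TD Ccnd1 was 2.40-fold (1.90 to 3.0), Cdk4 1.88-fold and Cdkn2c 10.4-fold (5.91 to 18.8) higher, and Ccnd2 was at 0.0905 (0.0292 to 0.214), an interval below that of IRI24h-TDN, with 5 of 7 beside 39.6% (15.7% higher and 23.9% lower). In monocytic-like cells of IRI24h-TDN Cdk4 was 2.30-fold higher and Cdkn1c at 0.121, 2 of 6 genes beside 32.3% (15.4% higher and 16.9% lower). Of the other G1/S genes, 15 of 26, 14 of 21 and 15 of 24 were higher in cycling PEC-like, PTEC-like and monocytic-like cells. These counts are over the 3 libraries together, where 0, 2 and 1 were lower. Of all genes 16.6%, 25.6% and 16.6% were higher there and 28.3%, 21.6% and 17.5% lower. The call by mitotic genes enters these counts. Ccna2 was 249-fold, 131-fold and 170-fold higher, and E2f8, an E2F factor gene of S phase, was 507-fold higher (87.1 to 20409) in PEC-like cells, with 1 UMI in other cells and 52 in cycling cells.

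**Figure D5:**
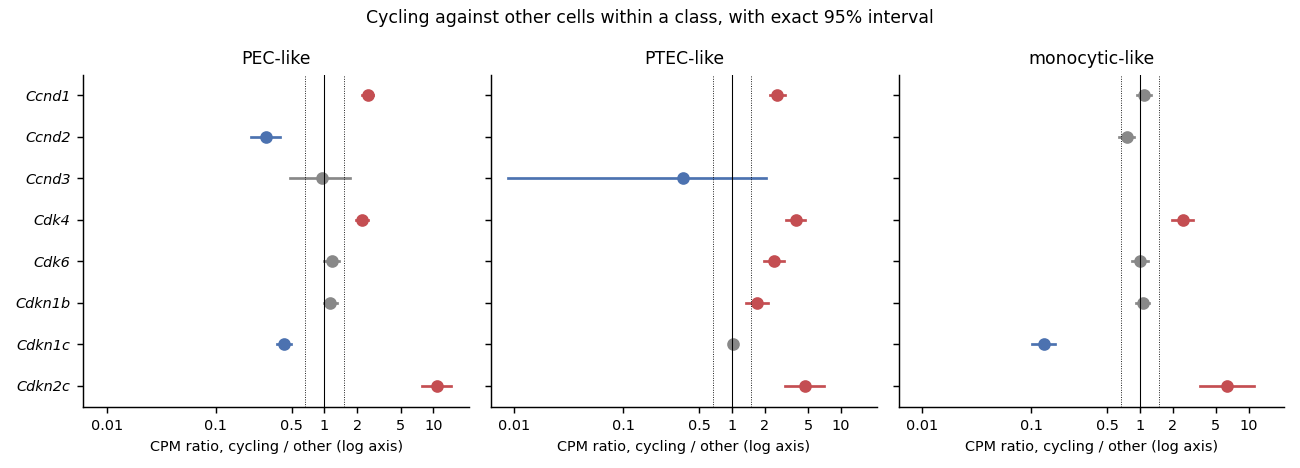
Ratio of levels in cycling to other cells (log axis) for the 8 genes in PEC-like, PTEC-like and monocytic-like cells, with exact 95% intervals and lines at 1.5-fold. Cdk4 lies at 2.20, 3.86 and 2.47 and Cdkn2c at 10.7, 4.68 and 6.37, and Ccnd2 of PEC-like cells at 0.293.

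The genes whose log levels followed each member most closely over the 24 groups were found among 8092 genes with at least 50 CPM in a group, by Pearson's r of log2(CPM + 1). Those of Cdkn1c were Hs3st6 (0.97), Myom2 (0.96) and Colec12 (0.95), and those of Ccnd2 were Itga9 (0.94), Ski (0.91) and Pip4k2a (0.89). Cdk4 was closest to Cct4 (0.90), Tfdp1 (0.89) and Snrpd1 (0.87), of which Tfdp1 is the E2F partner DP1. Ccnd1 had no close likeness, with Mmd (0.61), Fads1 (0.60) and 2510009E07Rik (0.58) at the top. Cdk6 was closest to Ehd1 (0.84), Xpo1 (0.83) and Mybbp1a (0.82), Cdkn1b to Stk10, Mycbp2 and Ddx6 (each 0.82), Ccnd3 to Azi2 (0.82), Dnmbp (0.81) and Nkap (0.78), and Cdkn2c to Fhl1 (0.79), Scpep1 (0.79) and Maf (0.78). Likeness was computed over groups that share libraries, and no p-value belongs to it.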

How the data were processed

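UMI counts per gene and barcode were deposited by the authors for 3 libraries, as raw counts without normalization. The submitters' processing notes name CASAVA 1.8, UMI-tools, Seurat and mm10. The members and lists were chosen with earlier results of these data known.

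After scaling each cell to 10000 counts and taking logarithms, clustering used 2000 variable genes, from which the 8 genes were left out, as were the other G1/S and mitotic genes, genes that followed the mitotic genes, and mitochondrial, ribosomal and haemoglobin genes. From 30 principal components corrected between libraries by the Harmony method (theta 2, written in numpy 2.4.6), cells were clustered on 15 neighbours with leidenalg 0.10.2 at resolution 1, and clusters of mixed markers again at 0.5, which gave 56 clusters. A cluster took the class with the highest marker score, provided that at least 3 and no fewer than 50% of its markers were each found in 10% of the cells, a rule set after seeing the clusters, and the authors' classes were not used here. Doublets were kept, and an alternative left out the top 6% of doublet scores (5.57%, 4.28% and 5.91% of cells). Python 3.11.15, scipy 1.17.1, pandas 2.3.3, scikit-learn 1.9.0 and matplotlib 3.10.9 were used, with edgeR 4.0.16 for TMM scaling as an alternative. Ratios and intervals were tried on simulated Poisson counts. Those counts hold no differences between cells or between replicate libraries, so they cannot show whether the intervals cover such differences.

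Named genes were the 8 members, Cdkn1a and Myc, up to 4 of the other 28 G1/S genes per class with the largest ratio past 1.5-fold, the 3 genes most like each member, and 5 injured tubule genes. Cdkn2d and the leading genes of cluster 19 were named after their values were seen. Some genes of the podocyte marker list are not reported here by name.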

Additional observations from a re-analysis of the deposited data

Results flagged for a closer look

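Genes with opposite ratios of IRI24h-TDN to Sham in different classes stood out, and with 1 library per condition these differences between classes were not tested. Ccnd1 was 7.53-fold higher in podocyte-like cells and at 0.336 in ascending limb-like cells. Ccnd2 was 2.11-fold higher in monocytic-like cells and at 0.443 in PEC-like cells. Cdk6 was 3.49-fold higher in PTEC-like cells and at 0.427 in intercalated-like cells, which had 48 UMIs in Sham and 47 in IRI24h-TDN.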

How the results depend on the processing

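No paired analysis was possible because each condition has 1 library, and none could be left out in turn. Of the values with an alternative setting, other than the counts and ratios that follow, 1678 moved by less than their counting interval, 373 moved by more and 8 changed direction. The 8 were Ccnd2 in intercalated-like cells (0.5505, at most 20% mitochondrial UMIs), Cdkn2c in PEC-like cells (0.7799, own markers; 0.99, cycling cells left out), Cdkn1c of IRI24h-TD to IRI24h-TDN in PTEC-like cells (0.7196, own markers), Cdkn1c in connecting tubule-like and intercalated-like cells (0.9527 and 0.9028, without podocyte-rich cells), Cdkn1c in cycling PEC-like cells (1.038, at least 2 mitotic genes) and Ccnd3 in cycling PTEC-like cells (1.176, thinned). The Ccnd1 ratio in podocyte-like cells, 7.53, was 8.074 at Leiden resolution 0.5 and 8.056 without the podocyte-like cluster with parietal genes. That of Cdkn1c, 1.68, was 1.671 with at most 20% mitochondrial UMIs and at resolution 0.5, 1.672 with own markers, 1.65 without mitochondrial and ribosomal genes, 1.786 with TMM and 1.673 without that cluster. Cdkn1c of podocyte-like over PEC-like cells in Sham was 32.92. This ratio was 40.17 with at least 500 genes, 30.28 with at most 20% mitochondrial UMIs and 49.2 without the top 6% of doublet scores. At resolution 2 it was 38.73, without correction between libraries 22.33 and with own markers 9.084. It was 31.31 without mitochondrial and ribosomal genes, and 73.42 and 89.43 without PEC-like or any cells rich in podocyte markers. Against Sham, 13 pairs of gene and class were higher and 11 lower, with 8 higher at 2-fold and 17 lower at 20 UMIs. Of IRI24h-TD against IRI24h-TDN, 5 were higher and 1 lower. The higher count was 3 with at least 500 genes and with at most 20% mitochondrial UMIs, 2 without correction and at 2-fold, and 1 with own markers. The lower count was 0 with at least 500 genes, at most 20% mitochondrial UMIs, resolution 0.5, own markers and 2-fold, 2 without mitochondrial and ribosomal genes, podocyte-rich or cycling cells, and 3 with TMM and at 20 UMIs. Cycling cells had 10 higher and 4 lower, with 2 lower without the top 6% of doublet scores. The cause was not tested. The settings without podocyte-rich cells, cycling cells or the podocyte-like cluster with parietal genes were chosen after seeing the data. Depth limits Cdkn2c, with enough UMIs in 3 of 10 classes, and Ccnd2 and Ccnd3, with enough in 6.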
